A study of Mus musculus with 23 samples.

Results

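*Runx2*, *Sp7*, *Dlx3*, *Dlx5*, *Dlx6*, *Msx1*, *Msx2*, *Twist1* and *Mef2c* are 9 transcription factor genes of the osteoblast lineage, and their RNA was followed in osteocyte-enriched bone of 23 mice. The 9 genes were chosen by name and were all found among 21402 genes in the table of normalized read counts. All 9 passed the filter on low values, 10 or more normalized counts in 2 or more libraries, which 15638 genes passed in all. *Msx2* passed it narrowly, with 2 libraries at 10 or more. The mice were C57BL/6 animals (C57BL/6J in the methods) aged 5 months, either wild type (WT) or lacking FNDC5, the precursor of the exercise hormone irisin, in every tissue (KO). Animals of both sexes ate a low-calcium diet (0.01% calcium) or a control diet (0.6% calcium) over 2 weeks. The 8 groups were KO females on the low-calcium diet (2 mice) and on the control diet (3 mice), WT females on each diet, KO males on each diet and WT males on each diet (3 mice each). RNA came from chips of tibia and femur shafts, cleared of marrow and digested to remove surface cells, so each library is a mixture and cells other than osteocytes were still present.

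Osteoblasts form from mesenchymal progenitors, and part of them are buried in matrix as osteocytes. *Runx2*, a runt domain factor, and *Sp7* (osterix), a zinc finger factor that acts downstream of it, are both needed for osteoblasts to form in mice. The homeobox factors of the Dlx and Msx families act on genes of skeletal patterning and of bone matrix, the basic helix-loop-helix factor Twist1 holds Runx2 back in early progenitors, and the MADS box factor Mef2c is known in osteocytes for its action on the enhancer of *Sost*.

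The homeobox is the stretch of 180 bases that codes for the DNA-binding domain of Dlx and Msx proteins. Its last 60 bases are printed from GENCODE vM21 transcripts (GRCm38, the same assembly as mm10) for 4 of these genes, to show how far they can be told apart by sequence. Capitals mark bases that differ from *Dlx5*.
Dlx5: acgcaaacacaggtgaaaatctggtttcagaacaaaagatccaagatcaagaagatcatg
Dlx6: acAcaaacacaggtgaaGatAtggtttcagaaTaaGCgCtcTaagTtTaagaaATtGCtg
Dlx3: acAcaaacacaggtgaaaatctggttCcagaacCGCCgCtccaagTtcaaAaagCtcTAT
Msx2: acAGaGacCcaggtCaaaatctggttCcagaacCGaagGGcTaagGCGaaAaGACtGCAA
Within these 60 bases *Dlx6* differed from *Dlx5* at 14, *Dlx3* at 13 and *Msx2* at 22 positions. Over the whole homeobox *Dlx5* and *Dlx6* were 73.3% identical, *Dlx5* and *Dlx3* 71.7%, and *Dlx6* and *Msx2* 56.7%. The longest identical run between the transcripts of any 2 of these 4 genes was 44 bases, between *Dlx6* and *Msx2*, which is shorter than the reads of 100 bases. *Msx1*, not printed here, was 82.2% identical to *Msx2* over the homeobox, the highest value among the listed Dlx and Msx genes. Their longest identical run was 22 bases.

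*Dlx5* (chr6:6877805-6882085, minus strand) and *Dlx6* (chr6:6863334-6868568, plus strand) are neighbours that face each other across 9236 bases. All 5235 bases of *Dlx6* lie inside the antisense gene *Dlx6os1*, and reads were counted by strand. The other genes are *Runx2* (chr17:44495987-44814797, minus strand), *Sp7* (chr15:102356606-102367182, minus strand), *Dlx3* (chr11:95120119-95125296, plus strand), *Msx1* (chr5:37820485-37824583, minus strand), *Msx2* (chr13:53466884-53473074, minus strand), *Twist1* (chr12:33957671-33959829, plus strand) and *Mef2c* (chr13:83504034-83667080, plus strand). RefSeq promoter windows (GRCm38.p6, 250 bases before to 50 bases after a start) were at hand for *Runx2*, *Msx1*, *Msx2*, *Twist1* and *Mef2c*. The Runx motif ACCACA, read on both strands (TGTGGT), was found in 16.8% of 32851 such windows. Among these 5 genes it was found in the window of *Runx2* alone, where it occurs 3 times, starting 80 bases before and 24 and 32 bases after the RefSeq start. The match before the RefSeq start lies inside the GENCODE span of *Runx2* given above, since the sources place the start differently. It is shown with its surroundings at chr17:44814690-44814719 (minus strand), the motif in capitals.
Runx2: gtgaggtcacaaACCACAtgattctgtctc

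Libraries held 7217601 to 33352631 reads recovered from the normalized counts, with a median of 20907756. Mice 16 and 17, both WT females on the low-calcium diet, had the shallowest libraries (11256675 and 7217601 reads). The third mouse of that group, mouse 18, had 18606399 reads. Fits without mice 16 and 17 leave mouse 18 alone in its group, so their p-values rest on the spread of other groups. The whole group had a low share of mapped reads per the study, so in any comparison with it the condition and the quality of the libraries cannot be told apart. Values without this group are therefore given beside the means over strata. *Dmp1*, *Mepe*, *Phex* and *Sost*, which mark osteocytes, had at least 1076 normalized counts in every library, and the osteoblast markers *Col1a1* and *Col1a2* at least 36403. *Fndc5* stood at 0 to 12.4 normalized counts in KO mice and at 0 to 17.8 in WT mice. Its counts cover the whole gene, whereas the KO lacks part of exon 3, so they do not check the genotype labels. In such bulk samples, fewer cells of a type and less RNA per cell cannot be told apart.

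Per kilobase of exon, *Runx2* had the highest level of the 9 genes in each of the 8 groups, with a median over mice of 515 normalized counts per kilobase. *Sp7* (343), *Mef2c* (335), *Dlx5* (230) and *Dlx3* (189) followed at the median. *Twist1* (75.2) and *Dlx6* (30.0) were lower, and *Msx1* (8.92) and *Msx2* (0.764) were lowest on this scale. This order depends on exon lengths that join all annotated transcripts of a gene, 15715 bases for *Mef2c* and 8837 for *Runx2*. In normalized counts without division by length, *Mef2c* had a higher mean than *Runx2* and *Sp7* in each of the 8 groups. Per kilobase, the order of *Sp7* and *Mef2c* moved with diet, since *Sp7* had the higher mean per kilobase in all 4 groups on the low-calcium diet and *Mef2c* in all 4 groups on the control diet. Depth set how much could be said of the Msx genes. *Msx1* rested on 5 to 83 reads per library, and *Msx2* on 0 to 18, with 5 libraries at 0.

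Levels differed among the 8 groups for 7 of the 9 genes (limma, moderated F test over the groups), against 43.7% of all genes tested. The smallest adjusted p was that of *Sp7* (4.53e-05), followed by *Dlx5* (3.65e-04), *Dlx6* (8.46e-04), *Twist1* (9.43e-04), *Mef2c* (0.00164), *Runx2* (0.00221) and *Dlx3* (0.00391). *Msx1* (adjusted p = 0.474) and *Msx2* (adjusted p = 0.518) did not pass. Among the 7 groups left without WT females on the low-calcium diet, 6 genes differed, against 33.4% of all genes, and *Runx2* did not pass (adjusted p = 0.173). WT females on the low-calcium diet had the highest mean of the 8 groups for *Runx2*, *Sp7*, *Dlx3*, *Dlx5*, *Dlx6*, *Twist1* and *Mef2c*. For *Runx2*, *Sp7* and *Dlx5* the lowest mouse of that group stood above the highest mouse of the group next in order. Further down the order most neighbouring groups overlapped (4 of 7 neighbouring pairs for *Runx2*, 5 of 7 for *Sp7* and 6 of 7 for *Dlx5*).

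**Figure D1:**
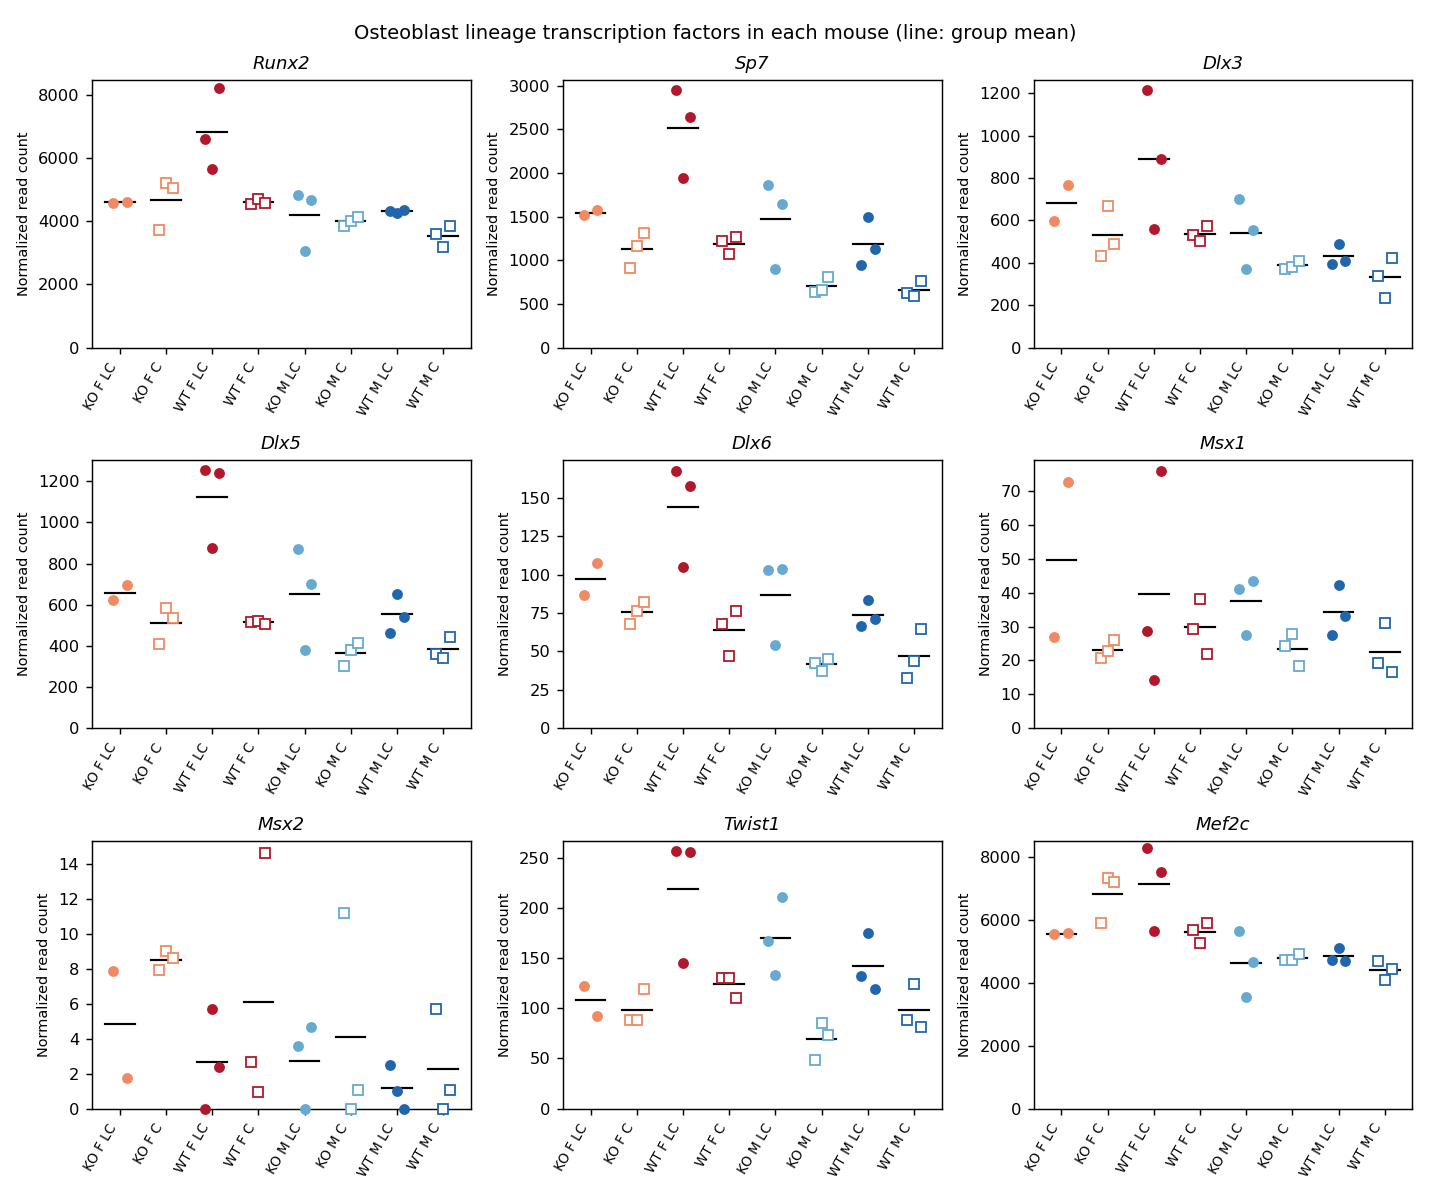
Normalized read counts (vertical axes, from 0) of the 9 genes in each mouse, by group (LC, low-calcium diet, filled circles; C, control diet, open squares; F, female; M, male), with a line at the group mean. For *Runx2*, *Sp7* and *Dlx5* the 3 WT females on the low-calcium diet lie above every other mouse, while *Msx1* and *Msx2* scatter at low counts.

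On the low-calcium diet, 6 of the 9 genes rose in the mean over the 4 strata of sex and genotype, against 31.4% of all genes that changed in this mean. These were *Sp7*, *Dlx6*, *Dlx5*, *Twist1*, *Dlx3* and *Runx2*, and their folds ran from 1.79 for *Sp7* to 1.16 for *Runx2*. *Msx1*, *Msx2* and *Mef2c* did not pass the test. The median log2 fold change of the 9 genes was 0.57, beside -0.01 for all genes tested. Without WT females on the low-calcium diet, the mean over the 3 strata left also had 6 genes that rose, against 28.2% of all genes, with *Msx1* in place of *Runx2*. The mean log2 fold change was then 0.56 for *Dlx5*, 0.68 for *Dlx6*, 0.41 for *Dlx3* and 0.65 for *Twist1*. By stratum, 5 genes rose in WT females (16.1% of all genes changed), 3 in KO males (3.41%) and 1 in WT males (4.88%), and none passed in KO females (7.40%). In KO females none had an unadjusted p under 0.05, and edgeR and DESeq2 called none.

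*Sp7*, required for progenitors to become osteoblasts, had the largest mean rise of the 9 genes. It stood at 1521 and 1575 normalized counts in KO females on the low-calcium diet, against 916, 1165 and 1314 on the control diet. In WT females it stood at 2952, 1940 and 2644 on the low-calcium diet, against 1226, 1076 and 1267 on the control diet. The diets did not overlap in either genotype of females. In KO males the counts were 1859, 904 and 1643 on the low-calcium diet, against 638, 665 and 809 on the control diet. In WT males they were 950, 1493 and 1133 on the low-calcium diet, against 627, 593 and 762 on the control diet. Again neither pair overlapped, and mouse 29 was the low KO male with 904. The mean log2 fold change over the strata was 0.84 (SE, the standard error, 0.11, adjusted p = 1.59e-05). *Sp7* passed in WT females (1.06, SE 0.22, adjusted p = 0.00301), KO males (1.00, SE 0.22, adjusted p = 0.0118) and WT males (0.83, SE 0.22, adjusted p = 0.0289), and had a log2 fold change of 0.47 (SE 0.24, adjusted p = 0.238) in KO females. Without WT females on the low-calcium diet the mean was 0.77 (SE 0.13, adjusted p = 2.92e-04). The call in WT males was lost without any one of mice 7, 24, 9 and 26 (adjusted p = 0.108, 0.106, 0.172 and 0.0818), and that in KO males without any one of mice 10, 27, 12 and 31 (adjusted p = 0.0679, 0.0612, 0.077 and 0.057).

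*Runx2*, the first factor of the lineage, moved less than *Sp7*. In KO females its counts were 4585 and 4620 on the low-calcium diet, against 3732, 5204 and 5050 on the control diet. In WT females they were 6599, 5661 and 8231 on the low-calcium diet, against 4549, 4717 and 4583 on the control diet. The KO females overlapped between diets and the WT females did not. In KO males *Runx2* stood at 4846, 3062 and 4669 on the low-calcium diet, against 3866, 4000 and 4133 on the control diet. In WT males it stood at 4327, 4265 and 4368 on the low-calcium diet, against 3609, 3201 and 3844 on the control diet. The KO males overlapped because of mouse 29, which had the lowest *Runx2* of all 23 mice. Mouse 29 also had the lowest summed osteocyte markers of all mice (8872 normalized counts) and the highest summed erythroid markers (138503). Its summed osteoblast markers (410706) were above those of every KO male control. The part of this make-up in its values was not tested. *Runx2* rose in WT females (0.55, SE 0.15, adjusted p = 0.0159) and in the mean over strata (0.22, SE 0.08, adjusted p = 0.0339). Without WT females on the low-calcium diet the mean was 0.11 (SE 0.08, adjusted p = 0.341) and did not pass. The call in the mean was lost in 10 of 23 fits that left out 1 mouse (any of mice 1, 4, 24, 10, 18, 5, 6, 26, 12 and 31), with adjusted p up to 0.0663, and in WT females it was lost without mouse 1 (adjusted p = 0.0541) or mouse 18 (adjusted p = 0.106).

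Among the Dlx genes, the neighbours *Dlx5* and *Dlx6* both rose, and their fold changes were close. *Dlx5*, which acts on osteoblast differentiation, stood at 621 and 697 in KO females on the low-calcium diet, against 410, 585 and 536 on the control diet. In WT females it stood at 1255, 877 and 1241 on the low-calcium diet, against 515, 520 and 506 on the control diet. In both genotypes every female on the low-calcium diet was above every female on the control diet. In KO males *Dlx5* counts were 869, 378 and 703 on the low-calcium diet, against 301, 380 and 413 on the control diet. In WT males they were 463, 654 and 541 on the low-calcium diet, against 362, 343 and 443 on the control diet. WT males did not overlap, whereas mouse 29, with 378, lay among the KO male controls. *Dlx5* rose by a log2 fold change of 1.11 (SE 0.22, adjusted p = 0.00282) in WT females and of 0.69 (SE 0.12, adjusted p = 1.52e-04) in the mean. In KO males it missed the threshold in limma (0.76, SE 0.22, adjusted p = 0.064) and passed it in edgeR (adjusted p = 0.0405) and DESeq2 (adjusted p = 0.00678), and in limma without mouse 29 (1.11, adjusted p = 7.85e-04) or mouse 17 (0.76, adjusted p = 0.0457).

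*Dlx6* had counts of 86.5 and 108 in KO females on the low-calcium diet, against 68.2, 76.5 and 82.0 on the control diet. In WT females the counts were 168, 105 and 158 on the low-calcium diet, against 68.2, 46.8 and 76.4 on the control diet. As for *Dlx5*, the diets did not overlap in females. *Dlx6* counts in KO males were 103, 54.5 and 104 on the low-calcium diet, against 42.6, 37.0 and 45.3 on the control diet. In WT males they were 66.4, 83.7 and 71.2 on the low-calcium diet, against 32.9, 43.7 and 64.8 on the control diet. No male pair overlapped either. The rise was 1.16 (SE 0.27, adjusted p = 0.00725) in WT females, 0.99 (SE 0.27, adjusted p = 0.0464) in KO males and 0.80 (SE 0.14, adjusted p = 2.47e-04) in the mean, all as log2 fold changes. The call in KO males held in 8 of 23 fits that left out 1 mouse. *Dlx6os1*, the antisense gene that spans *Dlx6*, had a mean log2 fold change of -0.01 (SE 0.17, adjusted p = 0.976). *Dlx3*, a homeobox gene of tooth, hair and bone, ran from 234 to 1215 counts over all mice. It rose in the mean over strata by 0.47 (SE 0.13, adjusted p = 0.00835), and in each stratum alone missed the threshold in limma, with log2 fold changes of 0.38 to 0.66. In WT females *Dlx3* stood at 1215, 561 and 892 on the low-calcium diet, against 530, 501 and 576 on the control diet, where mouse 17 (561) lay among the controls. In WT females *Dlx3* passed in limma without mouse 17 (0.96, adjusted p = 0.00756) or without mouse 29 (0.66, adjusted p = 0.0459). With all mice it passed there in edgeR (adjusted p = 0.0449) and DESeq2 (adjusted p = 0.0204).

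*Twist1*, which restrains Runx2 in progenitors, rose most in KO males. Its counts there were 167, 133 and 211 on the low-calcium diet, against 48.7, 85.3 and 73.3 on the control diet. In WT males they were 132, 175 and 119 on the low-calcium diet, against 88.6, 124 and 81.5 on the control diet. The KO males did not overlap, while among WT males mouse 26 (119) stood below mouse 24 of the controls (124). In KO females *Twist1* stood at 122 and 92.8 on the low-calcium diet, against 87.9, 88.5 and 119 on the control diet. In WT females it stood at 257, 145 and 256 on the low-calcium diet, against 130, 130 and 110 on the control diet. The WT females did not overlap and the KO females did. The log2 fold change was 1.30 (SE 0.25, adjusted p = 0.00624) in KO males, 0.78 (SE 0.25, adjusted p = 0.0403) in WT females, 0.54 (SE 0.25, adjusted p = 0.229) in WT males and 0.13 (SE 0.28, adjusted p = 0.826) in KO females. The call in WT females was lost without any one of mice 1, 14, 32, 16 and 18, with adjusted p up to 0.166. In the mean *Twist1* rose by 0.68 (SE 0.13, adjusted p = 5.00e-04).

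*Msx1* and *Msx2*, homeobox genes of early skeletal patterning, did not pass in any stratum with all mice. *Msx1* had 28.6, 14.2 and 76.1 counts in WT females on the low-calcium diet, against 29.2, 38.2 and 21.9 on the control diet, and 41.2, 27.6 and 43.6 in KO males on the low-calcium diet, against 24.4, 27.7 and 18.3 on the control diet. Both pairs overlapped. In KO females on the low-calcium diet mouse 6 had 72.7 counts and mouse 5 lay just above the control mice, which had 20.7, 22.9 and 25.9. Its mean log2 fold change of 0.57 (SE 0.23, adjusted p = 0.0642) passed with edgeR (adjusted p = 0.0191) and DESeq2 (adjusted p = 0.00745), and without mouse 17 (0.71, adjusted p = 0.0103), mouse 5 (0.75, adjusted p = 0.0246) or mouse 24 (0.64, adjusted p = 0.0476). Fits without mice 16 and 17 leave mouse 18, with the highest *Msx1* of all mice, alone in its group. The *Msx1* log2 fold change was then 1.36 in WT females, against 0.12 with all mice, and 0.88 in the mean. Without the whole group of WT females on the low-calcium diet the mean of *Msx1* was 0.73 (SE 0.21, adjusted p = 0.0137). *Msx2* had a mean log2 fold change of -0.51 (SE 0.53, adjusted p = 0.498) from counts between 0 and 14.6. *Mef2c*, the factor tied to osteocytes, showed no rise in the mean (0.03, SE 0.07, adjusted p = 0.805), a value whose sign turned under quantile normalization (-0.02) and without WT females on the low-calcium diet (-0.08). In WT females *Mef2c* stood at 8292, 5655 and 7524 on the low-calcium diet, against 5677, 5258 and 5910 on the control diet, and in KO females at 5553 and 5575 on the low-calcium diet, against 5893, 7349 and 7202 on the control diet. The first pair overlapped through mouse 17 and the second did not overlap, with log2 fold changes of 0.33 (SE 0.13, adjusted p = 0.097) in WT females and -0.29 (SE 0.15, adjusted p = 0.251) in KO females. Among KO females, 43.6% of all genes did not overlap between diets. In males the *Mef2c* fold changes were -0.08 in KO and 0.14 in WT on the log2 scale.

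Counts of genes called within a stratum moved with single mice. In WT females 3 genes passed without mouse 1 or without mouse 18, and 6 without mice 16 and 17 together. In KO males none passed without mouse 10, 1 without any one of mice 27, 12 and 31, and 4 without mouse 29 or without mouse 17, whereas the count for the mean over strata stayed between 5 and 7. The share of all genes called in each of these fits is not given here. The summed level of the 6 osteoblast markers (*Col1a1*, *Col1a2*, *Alpl*, *Bglap*, *Bglap2* and *Ibsp*, none at 0 in any library) moved with diet as well. It ran from 447358 to 465324 normalized counts in KO females on the low-calcium diet, against 209775 to 380648 on the control diet. In WT females the sums were 704710 to 1242793 on the low-calcium diet, against 348971 to 379429 on the control diet. In KO males they were 410706 to 731991 on the low-calcium diet, against 103260 to 185660 on the control diet, and in WT males 371118 to 657575 on the low-calcium diet, against 183786 to 218346 on the control diet. Of 7 osteoclast markers, none at 0 in any library, 5 rose in the diet mean, and their summed counts ran from 27831 to 58222 on the low-calcium diet, against 21323 to 36464 on the control diet. Of 6 endothelial markers 5 rose, with sums of 5872 to 18370 on the low-calcium diet, against 5746 to 9625 on the control diet. Of 7 neutrophil markers 4 fell, with sums of 237054 to 472872 on the low-calcium diet, against 254016 to 584363 on the control diet, and of 7 B lymphocyte markers 4 fell, with sums of 2882 to 6550 on the low-calcium diet, against 4881 to 9784 on the control diet. None of these markers was at 0 in any library. The part of any of these shifts in the results above was not tested.

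**Figure D2:**
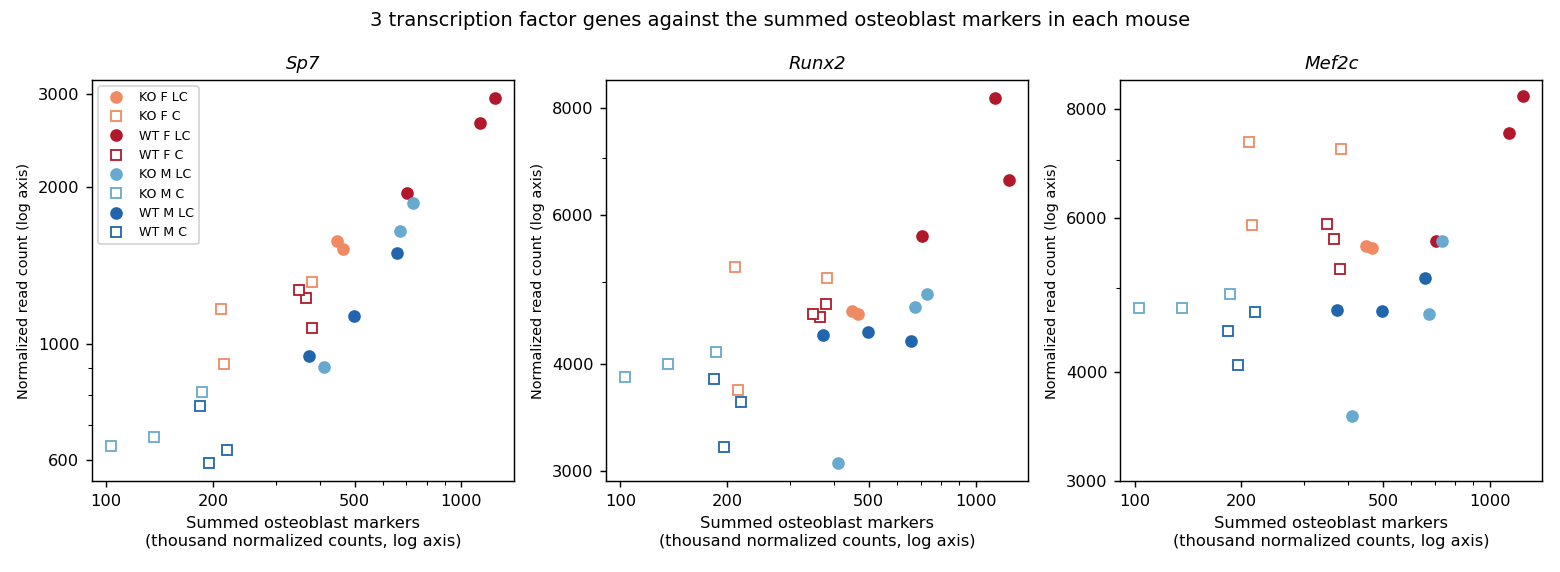
Normalized read counts of *Sp7*, *Runx2* and *Mef2c* (vertical, log axes) against the summed counts of 6 osteoblast markers (horizontal, log axis), 1 point per mouse, low-calcium diet filled and control diet open. High *Sp7* goes with a high marker sum, while *Mef2c* reaches 7349 counts in a KO female on the control diet whose marker sum is 209775.

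Females had more RNA of 6 of the 9 genes than males in the mean over the 4 strata of genotype and diet, against 40.1% of all genes that differed. On the log2 scale *Sp7* was higher by 0.69 (SE 0.11, adjusted p = 1.29e-04), *Dlx3* by 0.63 (SE 0.13, adjusted p = 7.99e-04), *Dlx6* by 0.61 (SE 0.14, adjusted p = 0.00187) and *Dlx5* by 0.51 (SE 0.12, adjusted p = 0.00172). *Mef2c*, which did not pass for diet, was higher by 0.42 (SE 0.07, adjusted p = 1.49e-04), and *Runx2* by 0.35 (SE 0.08, adjusted p = 0.00123). *Twist1*, which rose with the diet, did not pass for sex (0.21, SE 0.13, adjusted p = 0.216), nor did *Msx1* (0.15, SE 0.23, adjusted p = 0.653; -0.07 under quantile normalization) or *Msx2* (1.00, SE 0.53, adjusted p = 0.138). The count of 6 held in all 23 fits that left out 1 mouse. Without WT females on the low-calcium diet 5 genes were higher in females, against 26.5% of all genes that differed, and *Dlx5* did not pass (0.34, SE 0.13, adjusted p = 0.0656). The values of the 5 genes were then 0.56 for *Sp7*, 0.51 for *Dlx3*, 0.50 for *Dlx6*, 0.38 for *Mef2c* and 0.25 for *Runx2*. Markers of several cell types moved with sex as well. In the sex mean all 6 osteoblast, all 6 endothelial, 6 of 7 osteoclast, 6 of 9 osteocyte, 4 of 7 B lymphocyte and all 4 tested adipocyte markers were higher in females, and all 7 neutrophil markers were lower. The neutrophil sums ran from 237054 to 519532 in females, against 374641 to 584363 in males, the endothelial sums from 6342 to 18370 in females, against 5746 to 7441 in males, and the osteoblast sums from 209775 to 1242793 in females, against 103260 to 731991 in males. Of the chondrocyte markers 2 of 6 tested were higher in females. Beside these values, the summed counts of 7 chondrocyte markers on the low-calcium diet were 6544 to 7846 in KO females, against 2717 to 3972 in KO males, and 9487 to 19789 in WT females, against 2202 to 3042 in WT males. On the control diet these sums were 3880 to 6594 in KO females, against 1215 to 2941 in KO males, and 7363 to 8220 in WT females, against 1409 to 9126 in WT males. The sexes overlapped in WT mice on the control diet alone. Of these markers *Col9a1*, *Matn3* and *Col10a1* were at 0 in some library. The part of any of these markers in the sex difference was not tested.

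Among WT mice on the low-calcium diet, 6 of the 9 genes were higher in females (31.9% of all genes differed). *Sp7* stood at 2952, 1940 and 2644 counts in these females, against 950, 1493 and 1133 in males, a 2.11-fold difference (adjusted p = 0.00133). *Runx2* stood at 6599, 5661 and 8231 counts in females, against 4327, 4265 and 4368 in males, a 1.56-fold difference (adjusted p = 0.00301). In both genes the sexes did not overlap, as was so for 43.5% of all genes. *Dlx5* was 2.03-fold higher in females (adjusted p = 0.00236), *Dlx3* 1.97-fold (adjusted p = 0.00586), *Dlx6* 1.91-fold (adjusted p = 0.0129) and *Mef2c* 1.46-fold (adjusted p = 0.00502). *Dlx6* lost its call without any one of mice 16, 18 and 8 (adjusted p = 0.0566, 0.0514 and 0.0517), and without mice 16 and 17 together the count was 6 as well. In KO mice on this diet no gene passed (2.59% of all genes differed), with 1 at an unadjusted p under 0.05 and none by edgeR or DESeq2. That gene was *Twist1*, at 122 and 92.8 in KO females, against 167, 133 and 211 in KO males (-0.64, SE 0.28, adjusted p = 0.194).

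On the control diet, *Sp7* alone passed in WT mice (1.89% of all genes differed), with 1226, 1076 and 1267 counts in females, against 627, 593 and 762 in males. The sexes did not overlap, as was so for 25.7% of all genes, and the log2 fold change was 0.85 (SE 0.22, adjusted p = 0.043). In KO mice *Mef2c* alone passed (3.91% of all genes differed), with 5893, 7349 and 7202 counts in females, against 4738, 4736 and 4918 in males. These groups did not overlap either, as was so for 29.6% of all genes, and the log2 fold change was 0.50 (SE 0.13, adjusted p = 0.0439). *Sp7* (0.68, SE 0.22, adjusted p = 0.0736) and *Dlx6* (0.85, SE 0.27, adjusted p = 0.0744) fell short in KO mice and passed with DESeq2 (adjusted p = 0.026 and 0.0326). Without mouse 29 both passed in limma too (adjusted p = 0.0229 for *Sp7* and 0.0398 for *Dlx6*). Both single calls depended on single mice, since *Sp7* in WT held in 12 and *Mef2c* in KO in 9 of 23 fits that left out 1 mouse, with adjusted p up to 0.193 and 0.171. WT male controls also carried RNA of other tissues, with summed hepatocyte markers of 1240 to 15252 normalized counts, against at most 193 in any other library, and its part in comparisons with this group was not tested.

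FNDC5 loss moved none of the 9 genes past the threshold of limma. KO was compared with WT in females on the low-calcium diet (1.24% of all genes differed), females on the control diet (0%), males on the low-calcium diet (0.00639%), males on the control diet (0.460%) and in the mean over these strata (0.0576%). edgeR called none of the 9 genes in any of these, and DESeq2 called 3, all in females on the low-calcium diet. The shares of all genes above are those of limma, and the share called by DESeq2 is not given here. In that comparison 5 genes had an unadjusted p under 0.05, as had 20.9% of all genes. In the mean 1 had, as had 9.04% of all genes, and in the other 3 comparisons none had. *Twist1* showed the lowest p in the mean, with a log2 fold change of -0.40 (SE 0.13, adjusted p = 0.375). Without WT females on the low-calcium diet it was -0.20 (SE 0.13, adjusted p = 0.859), and neither a member nor any other gene passed (0% of all genes), with no member at an unadjusted p under 0.05.

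The 5 genes of low unadjusted p in females on the low-calcium diet all had lower counts in KO mice, and their KO and WT mice did not overlap, as was so for 32.6% of all genes. *Twist1* stood at 122 and 92.8 in KO females, against 257, 145 and 256 in WT females (-0.99, SE 0.28, adjusted p = 0.077). *Runx2* stood at 4585 and 4620 in KO females, against 6599, 5661 and 8231 in WT females (-0.55, SE 0.16, adjusted p = 0.0841). The differences of *Dlx5* (-0.75, SE 0.25, adjusted p = 0.106), *Sp7* (-0.68, SE 0.24, adjusted p = 0.125) and *Mef2c* (-0.34, SE 0.15, adjusted p = 0.201) were further from the threshold. Mouse 17, the shallowest library and the lowest of the 3 WT females for each of these genes, and mouse 29, which is in neither group but enters the shared fit, each changed the calls when left out. Without mouse 17 all 5 passed (adjusted p = 0.00897 for *Twist1*, 0.0155 for *Runx2*, 0.0268 for *Dlx5*, 0.0318 for *Sp7* and 0.0264 for *Mef2c*), and without mouse 29 the 4 other than *Mef2c* passed (adjusted p of 0.023 to 0.0449). Without mice 16 and 17 together 2 passed, *Runx2* (-0.84, adjusted p = 0.0125) and *Twist1* (-1.25, adjusted p = 0.0231), with 1 WT mouse left.

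**Figure D3:**
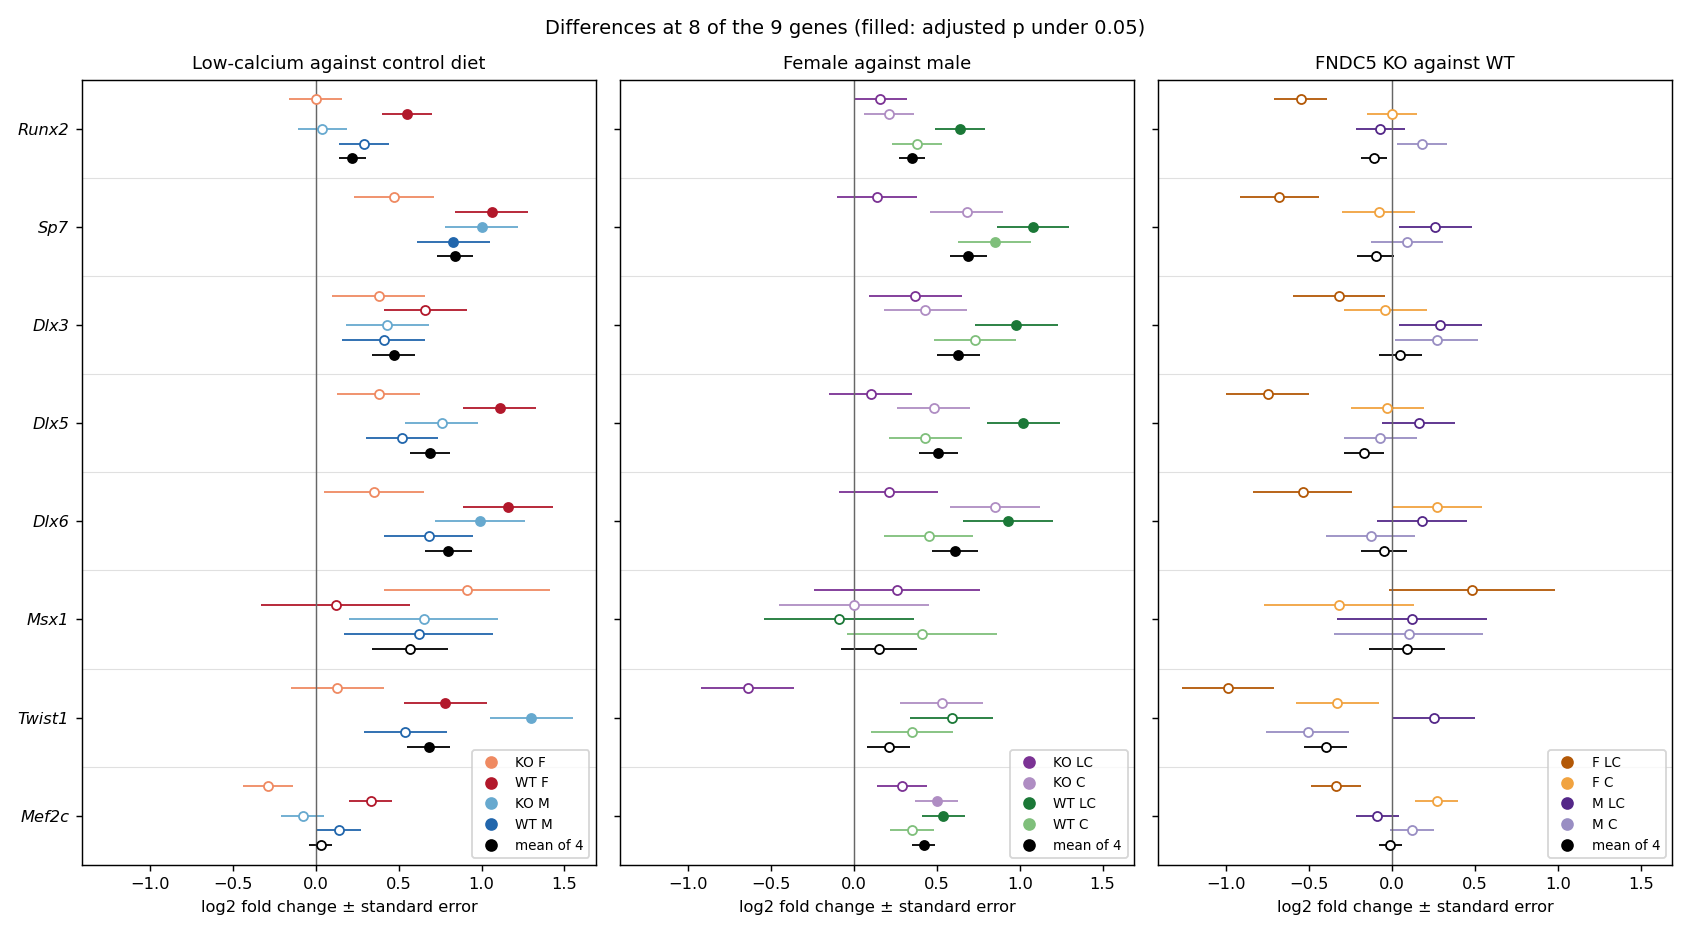
Log2 fold changes with standard errors (horizontal axes) of 8 genes by diet, sex and FNDC5 genotype, 1 symbol per stratum and black for the mean over 4 strata, filled where the adjusted p was under 0.05. *Msx2* is left out for its low counts. Filled symbols stand at positive values in the diet and sex panels, up to 1.30 for *Twist1* in KO males, and the genotype panel has none.

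Whether the diet acted differently by genotype or sex was tested directly, and no gene passed in limma, edgeR or DESeq2. These tests covered genotype by diet in females (0.0128% of all genes differed) and in males (0%), and sex by diet in WT (0.173%) and in KO mice (0%). At an unadjusted p under 0.05 there were 3 genes for genotype by diet in females (16.8% of all genes), 1 for genotype by diet in males (5.38%), none for sex by diet in WT (13.8%) and 1 for sex by diet in KO mice (13.7%). The response of *Mef2c* was lower in KO than in WT females by 0.62 on the log2 scale (-0.62, SE 0.20, adjusted p = 0.133), that of *Dlx5* by 0.73 (-0.73, SE 0.33, adjusted p = 0.271) and that of *Runx2* by 0.55 (-0.55, SE 0.22, adjusted p = 0.212). Without mouse 17 the test of *Mef2c* passed (-0.78, adjusted p = 0.0239). Without mice 16 and 17, which leaves mouse 18 alone in its group, the values were -0.71 for *Mef2c* and -0.84 for *Runx2*. *Twist1* responded less in KO females than in KO males by 1.17 (-1.17, SE 0.38, adjusted p = 0.212), and more in KO than in WT males (0.76, SE 0.36, adjusted p = 0.915). The calls in some strata and not in others therefore do not show that the strata differed.

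Relatives, partners and targets of these factors were followed in 3 lists. All means given for them include WT females on the low-calcium diet. Of all genes tested, 31.4% were called in the diet mean and 40.1% in the sex mean, in either direction. Of 15 paralogs, 9 passed the filter on low values, and in the diet mean 5 rose and none fell, with a median log2 fold change of 0.16, beside -0.01 for all genes. These were *Dlx4* (1.14, adjusted p = 0.00298), *Sp6* (0.68, adjusted p = 0.0137), *Runx1* (0.19, adjusted p = 0.00205), *Runx3* (0.17, adjusted p = 0.0185) and *Mef2d* (0.13, adjusted p = 0.0334). In the sex mean *Mef2a* was higher in females (0.42, adjusted p = 5.41e-04), and *Sp3* (-0.24, adjusted p = 1.30e-04) and *Sp1* (-0.13, adjusted p = 0.00532) were lower. Of 24 partners and regulators, 11 rose and 2 fell with the diet (median 0.15). *Hey1*, a Notch target (1.21, adjusted p = 3.15e-05), and *Snai2* (0.76, adjusted p = 1.33e-05) were among those that rose, and *Cbfb*, which encodes the subunit that pairs with Runx2, rose by 0.18 (adjusted p = 0.00252). The 2 that fell were *Zbtb16* (-0.48, adjusted p = 0.0072) and *Hdac9* (-0.32, adjusted p = 0.00164). Of 14 target genes, 11 rose and 1 fell (median 1.10), and all 6 osteoblast markers are among the 14. *Spp1*, which encodes osteopontin, rose by 1.53 (adjusted p = 1.23e-07), *Col1a1* by 1.48 (adjusted p = 1.11e-06) and *Col1a2* by 1.36 (adjusted p = 1.37e-06), while *Sost*, the osteocyte Wnt inhibitor under Mef2c control, fell (-0.66, adjusted p = 0.0153). In the sex mean 12 of the 14 targets were higher in females (median 0.75), and of the partners 17 were higher and 2 lower (median 0.37). In the KO mean none of the 3 lists had a gene that passed in limma.

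Over the 23 mice, *Sp7*, *Dlx5* and *Dlx6* had the most alike patterns of the 9 genes. Pearson's r of their log2 counts was 0.97 for *Sp7* and *Dlx5*, 0.95 for *Sp7* and *Dlx6* and 0.93 for *Dlx5* and *Dlx6*. After the group means were taken off, r was 0.94, 0.83 and 0.74, so single mice of a group also moved together. These are descriptions over points that share libraries and groups. *Twist1* followed *Sp7* less closely within groups (0.78 over mice, 0.51 within groups), and *Mef2c* more closely within groups (0.87) than over all mice (0.69). *Msx2* had no r above 0.35 with another of the genes.

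Genes outside the list were ranked by the same r over 23 mice. *Nrp2* and *Unc5b* were among the 3 nearest to *Sp7* (0.98 each). *Ctnnd1* and *Etl4* were nearest to *Runx2* (0.95 each), and *Phex*, an osteocyte endopeptidase, was nearest to *Mef2c* (0.97). *Cpz*, *Sparc* and *Col5a2*, genes of the extracellular matrix or its processing, were nearest to *Twist1* (0.94, 0.93 and 0.93). For *Dlx5* they were *Unc5b*, *Slc39a13* and *Dpysl3* (0.97 each), for *Dlx6* *Zfhx4* (0.96) and for *Dlx3* *Enpp6* (0.93). The nearest to *Msx1* (*Nfatc4*, 0.72) and *Msx2* (*Rccd1*, 0.67) were less alike.

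The ratio of *Sp7* to *Runx2* within each mouse was looked at after its parts had been seen, and is given as a description. As a log2 ratio of normalized counts, not corrected for length, it averaged -1.57 ± 0.03 (SD, n = 2) in KO females on the low-calcium diet and -2.04 ± 0.11 (SD, n = 3) on the control diet. In WT females it averaged -1.45 ± 0.25 on the low-calcium diet and -1.96 ± 0.15 on the control diet (SD, n = 3 each). In KO males it averaged -1.55 ± 0.19 on the low-calcium diet and -2.51 ± 0.14 on the control diet, and in WT males -1.88 ± 0.34 on the low-calcium diet and -2.43 ± 0.10 on the control diet (SD, n = 3 each). No mouse on the low-calcium diet had a ratio as low as any mouse of its own sex and genotype on the control diet. How often this holds for ratios of other genes was not counted over all genes. Mouse 29, low for *Runx2* and *Sp7* alike, had a log2 ratio of -1.76, above all KO male controls. The ratio of *Mef2c* to *Runx2* was highest in KO females on the control diet, at 0.56 ± 0.09 (SD, n = 3), beside 0.28 ± 0.11 (SD, n = 3) in WT females on that diet.

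**Figure D4:**
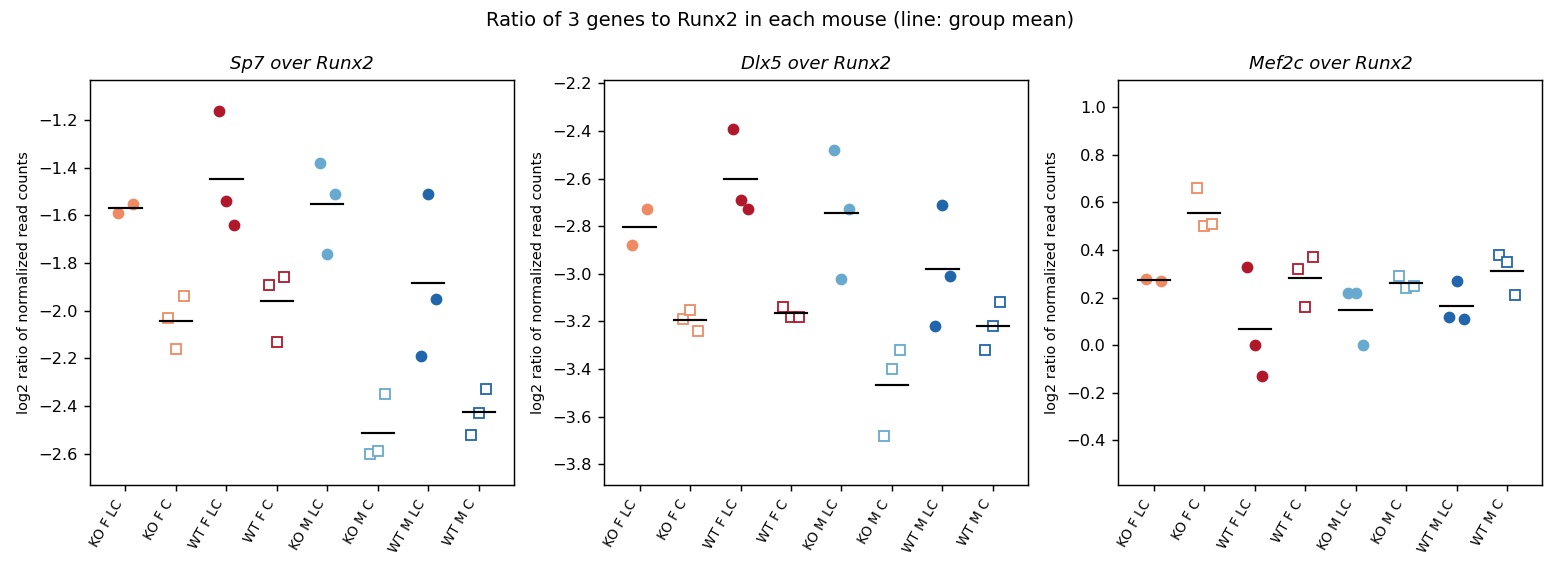
Log2 ratio of *Sp7*, *Dlx5* and *Mef2c* to *Runx2* (vertical axes, normalized counts) in each mouse by group, with a line at the group mean, low-calcium diet filled and control diet open. The ratio of *Sp7* lies between -1.16 and -2.19 on the low-calcium diet and between -1.86 and -2.60 on the control diet, with no overlap inside any sex and genotype.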

How the data were processed

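The members and the gene lists were chosen with earlier results of these data known. Bone chip RNA of 23 mice was sequenced as total RNA in paired reads of 100 bases. Per the authors, reads were checked with FastQC 0.11.5, aligned to mm10 with STAR 2.7.10a and counted per gene by strand with featureCounts at a mapping quality of at least 10. The deposited signal values are these counts divided by DESeq2 size factors. Which annotation they counted on is not given in the sources read, so positions and exon lengths were taken by symbol from GENCODE vM21.

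Dividing out the size factors gave whole reads (within 0.01) for 100% of values, with 7217601 to 33352631 reads per library. Counting error is larger in the shallow libraries. A pseudocount of 1 was added before log2, and limma 3.58.1 (trend, R 4.3.3) was fitted with 1 mean per group. P-values are two-sided, with Benjamini-Hochberg adjustment over 15638 genes, and an adjusted p under 0.05 was called. In a comparison of 2 groups of 3 mice no exact two-sided permutation test can go below 0.1. Calls in such comparisons therefore rest on a spread shared over groups and genes. Nothing in the labels ties mice to litters, so p-values measure the spread between these animals. The 12 comparisons of 2 groups share groups with each other.

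Named were all 9 genes, up to 4 called genes per list and comparison by smallest adjusted p, the 3 genes most alike in pattern, and *Fndc5*. *Mef2d*, *Cbfb*, *Zbtb16*, *Hdac9*, *Sost* and *Dlx6os1* fall outside this rule where diet values are given and were named after those were seen. The alternatives changed the pseudocount (5), the filter (none), the scaling (quantile normalization), the tool (edgeR 4.0.16 or DESeq2 1.42.0, on recovered reads), the weights (library quality), the thresholds (in DESeq2 an unadjusted p under 0.01 with a log2 fold change past 1, as in the study) or the mice (without each, or without mice 16 and 17). A fit without all WT females on the low-calcium diet, with means over the 3 strata left, was added after seeing the data. Scripts were checked on simulated data. Python 3.11.15 with pandas 2.3.3 and numpy 2.4.6 served for tables. A KO female left out by the authors was not analysed here, and some items are not reported here.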

Additional observations from a re-analysis of the deposited data

How the results depend on the processing

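With the thresholds of the study in DESeq2, 3 of the 9 genes passed for diet in WT females and 0 in WT males, 3 for sex in WT mice on the low-calcium diet and 0 in either genotype on the control diet, and 1 for KO against WT in females on the low-calcium diet. With library quality weights the counts were 1 for diet in KO females, 4 in WT males and 5 in KO males, 5 for KO against WT in females on the low-calcium diet, 6 for sex in WT and 4 in KO mice on the control diet, and 3 for genotype by diet in females. DESeq2 at the usual threshold called 3 for KO against WT in females on the low-calcium diet and 3 for sex in KO mice on the control diet. With no filter on low values 0 passed for sex on the control diet in either genotype. Without mice 16 and 17, 2 passed for KO against WT in females on the low-calcium diet and 2 for genotype by diet in females. Quantile normalization turned the sign of *Mef2c* in the diet mean (-0.02) and of *Msx1* in the sex mean (-0.07), and leaving out WT females on the low-calcium diet, chosen after seeing the data, turned that of *Mef2c* in the diet mean (-0.08). Leaving out 1 mouse at a time, counts ran from 3 to 7 for diet in WT females, 0 to 1 in WT males and 0 to 4 in KO males, 0 to 5 for KO against WT in females on the low-calcium diet, 0 to 1 for sex in WT and 0 to 3 in KO mice on the control diet, and 0 to 1 for genotype by diet in females. Log2 fold changes of *Msx1* then ran from -0.50 to 0.67 for diet in WT females and from -0.03 to 0.32 in the sex mean, and those of *Mef2c* from -0.01 to 0.07 in the diet mean. The causes were not tested. The share of all genes called under each of these settings is not given here. These counts therefore do not show whether a setting moved the 9 genes more than other genes. Of the values of single genes with 1 mouse left out, 1645 kept direction and call, 69 lost and 23 gained a call and 5 turned sign. With other settings 478 kept both, 8 lost and 48 gained a call and 3 turned sign. Depth limits *Msx1* and *Msx2*. No paired analysis was possible because the groups share no replicate numbers.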
